A study of Homo sapiens with 6 samples.

Results

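Creatine kinases and the genes that supply creatine were examined on expression arrays of HCT116, an established line of colorectal cancer cells. The group holds 8 genes, CKMT1A, CKMT1B, CKMT2, CKB, CKM, GATM, GAMT and SLC6A8, and every probe set that the platform's gene table assigned to 1 of them or to CKMT1A and CKMT1B together. Of 19605 gene symbols in that table these are 8, read by 19 of the 49293 probe sets that are not controls. The genes were chosen by symbol with values of this same comparison already known, so their differences are given as a description. Calls of members in the fit over all probe sets are also descriptive and are no test of these genes. The control group (sh-Ctrl) carried a lentivirus encoding a control shRNA and the other group (sh-PNO1) a lentivirus encoding an shRNA against PNO1, a factor of small ribosomal subunit maturation, each for 72 h. Each group held 3 samples, 1 array per sample, labelled as biotinylated cRNA from 100 ng of total RNA. All 6 samples were of the same line and all were transduced. Whether the replicates were grown apart is not in the labels; errors and p-values thus cover array-to-array spread alone, part of which can be technical. The number of arrays limits the precision.

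Creatine kinases pass a phosphate group between ATP and creatine, so that phosphocreatine can buffer and carry cellular energy. CKB and CKM are the cytosolic brain and muscle types. CKMT1A and CKMT1B are a pair of gene copies for the ubiquitous mitochondrial enzyme, and CKMT2 encodes the sarcomeric mitochondrial enzyme of muscle. Creatine itself is made by GATM, which joins the amidino group of arginine to glycine, and then by GAMT, which adds a methyl group from S-adenosylmethionine. SLC6A8 is the plasma membrane transporter that takes creatine up from outside the cell.

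PNO1, the target of the hairpin, fell from an intensity of 534 ± 1.70 (SD, n = 3) to 106 ± 1.98 (SD, n = 3) on the brightest of its 3 probe sets (log2 fold change −2.33 ± 0.04 SE, limma adjusted p = 3.32e-07), and the others fell too. The array medians lay between 25.6 and 25.9. The 3' probe set of GAPDH minus its 5' probe set, a sign of RNA quality, was −0.03 to −0.01 on the log2 scale for the control arrays and −0.08 to −0.06 for the others, and the same measure of ACTB was 2.25 on sh-PNO1 replicate 2 against 1.73 to 1.87 on the others; their part in the values below was not tested. Of 8 epithelial markers 7 lay above the median probe set, their sum being 9417 to 9797 on control arrays and 10098 to 10499 after the PNO1 hairpin. CLDN3 (23.1 in sh-Ctrl) was the exception. Most of the rise of that sum was KRT19, which went from 2329 to 3000 (limma adjusted p = 0.00056). CDH1 also rose (0.31, adjusted p = 0.00222), CLDN7 fell (−0.15, adjusted p = 0.0266), and the other 5 did not pass. Of 6 intestinal markers only CDX2 and, barely, KRT20 lay above the median probe set, and neither passed (limma adjusted p = 0.316 and 0.138). VIL1 (4.88), LGALS4 (8.99) and CDH17 (11.1) were dim, and no intestinal marker passed. Of 10 skeletal and heart muscle markers measured 3 exceeded the median (TNNI3, DES and NPPA), with sums of 264 to 279 (sh-Ctrl) and 285 to 293 (sh-PNO1), while MYOG (10.6) and MYF5 (6.25) were dim. Most of the difference in that sum was TNNI3, at 120 and 133 (adjusted p = 0.0756). MYH7 rose (0.26, adjusted p = 0.017) and MYOD1 fell (−0.24, adjusted p = 0.0168). Of 7 markers of neurons and glia 5 exceeded the median (MBP at 202 in sh-Ctrl, SYT1 at 172, SNAP25, ELAVL3 and GFAP), and AQP4 (4.04) was the dimmest. Their sums were 531 to 541 and 544 to 566. ELAVL3 fell (−0.15, limma adjusted p = 0.0401), and the others did not pass. The part of these marker sums in the values below was not tested. The arrays carry bulk RNA, in which fewer cells with a transcript and less of it per cell cannot be told apart.

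The promoters of the genes that differed most are shown because CKMT1A and CKMT1B are near-identical copies, which limits what the array can say about each. RefSeq (assembly GRCh38.p14) windows of 250 bases before to 50 after an annotated start were found for 7 of the 8 genes, and none was found for GAMT. CKMT1B has 2 such windows and CKMT1A 5, and the pair with the longest shared stretch is used here. The CKMT1B window at chr15:43593584-43593883 (plus strand) and that of CKMT1A at chr15:43693441-43693740 (plus strand) overlap by 275 bases when aligned, and all 275 are identical. That CKMT1B window and the single window of CKB, at chr14:103522781-103523080 (minus strand), read as follows, 5′ to 3′ on the strand of the gene, with capitals marking every match, on either strand, to an E-box, a CCAAT box, a TATA box or a GC box, whose letters are given below the sequences.
CKMT1B: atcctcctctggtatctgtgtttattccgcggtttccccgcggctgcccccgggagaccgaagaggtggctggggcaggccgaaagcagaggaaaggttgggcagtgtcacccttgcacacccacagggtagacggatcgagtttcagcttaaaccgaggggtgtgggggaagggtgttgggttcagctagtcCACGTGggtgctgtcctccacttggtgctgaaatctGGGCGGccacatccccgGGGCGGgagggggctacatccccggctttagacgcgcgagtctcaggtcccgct
CKB: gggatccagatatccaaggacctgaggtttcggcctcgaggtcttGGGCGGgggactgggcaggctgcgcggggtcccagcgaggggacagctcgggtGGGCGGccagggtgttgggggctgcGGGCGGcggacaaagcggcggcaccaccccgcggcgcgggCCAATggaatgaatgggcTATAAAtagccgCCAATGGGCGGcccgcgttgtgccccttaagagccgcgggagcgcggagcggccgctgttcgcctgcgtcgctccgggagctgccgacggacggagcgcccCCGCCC
The CKMT1B window held 1 E-box (CACGTG), found in 7.26% of 35116 windows of that length, and 2 GC boxes. The GC box searched was GGGCGG, found in 44.95% of windows. Both motifs lie within the stretch shared with CKMT1A, whose window also held 1 and 2. The CKB window held 5 GC boxes, 2 CCAAT boxes and 1 TATA box, and no E-box. The CCAAT box, searched by the letters in its name, was in 34.61% of windows. The TATA box, searched as TATAAA, was in 11.53%. In 1 place a CCAAT box directly adjoins a GC box. GC content was 62.7% in the CKMT1B window shown and 72.3% in that of CKB, against a median of 58.7% over all windows. The other CKMT1B window had 47.0% GC and none of these motifs. The other CKMT1A windows held 0 to 1 E-box, 0 to 4 GC boxes and 0 to 2 CCAAT boxes. A match is a description of the letters and not a site of binding.

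On 2 of the 7 probe sets of the mitochondrial kinase copies, both shared by CKMT1A and CKMT1B, the signal was higher in sh-PNO1. It was also higher on the probe set of the cytosolic kinase CKB. The probe sets for creatine synthesis and uptake stayed close to their control values. Those of GATM were dim, so for GATM this describes the signal and not the transcript. SLC6A8 11716740_a_at was lower in sh-PNO1 (log2 fold change −0.11) and was called only when 16 was added before log2. The largest difference was a 2.19-fold higher signal on a probe set shared by CKMT1A and CKMT1B. In limma's fit across all probe sets, 3 of the 19 member probe sets (15.8%) were called higher at an adjusted p under 0.05, against 14.8% of all probe sets, and 0 were called lower, against 13.2%. At an unadjusted p under 0.05 there were 3 higher and 1 lower, against 20.9% and 17.3% of all probe sets. The arrays of the groups did not overlap in 6 member probe sets that were higher, against 21.9% of all probe sets, and in 1 that was lower, against 18.3%. The median log2 fold change (sh-PNO1 minus sh-Ctrl throughout) was 0.06 over the members and 0.01 over all probe sets. These counts come from the comparison in which the genes were chosen, so they are no test of the group.

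**Figure D1:**
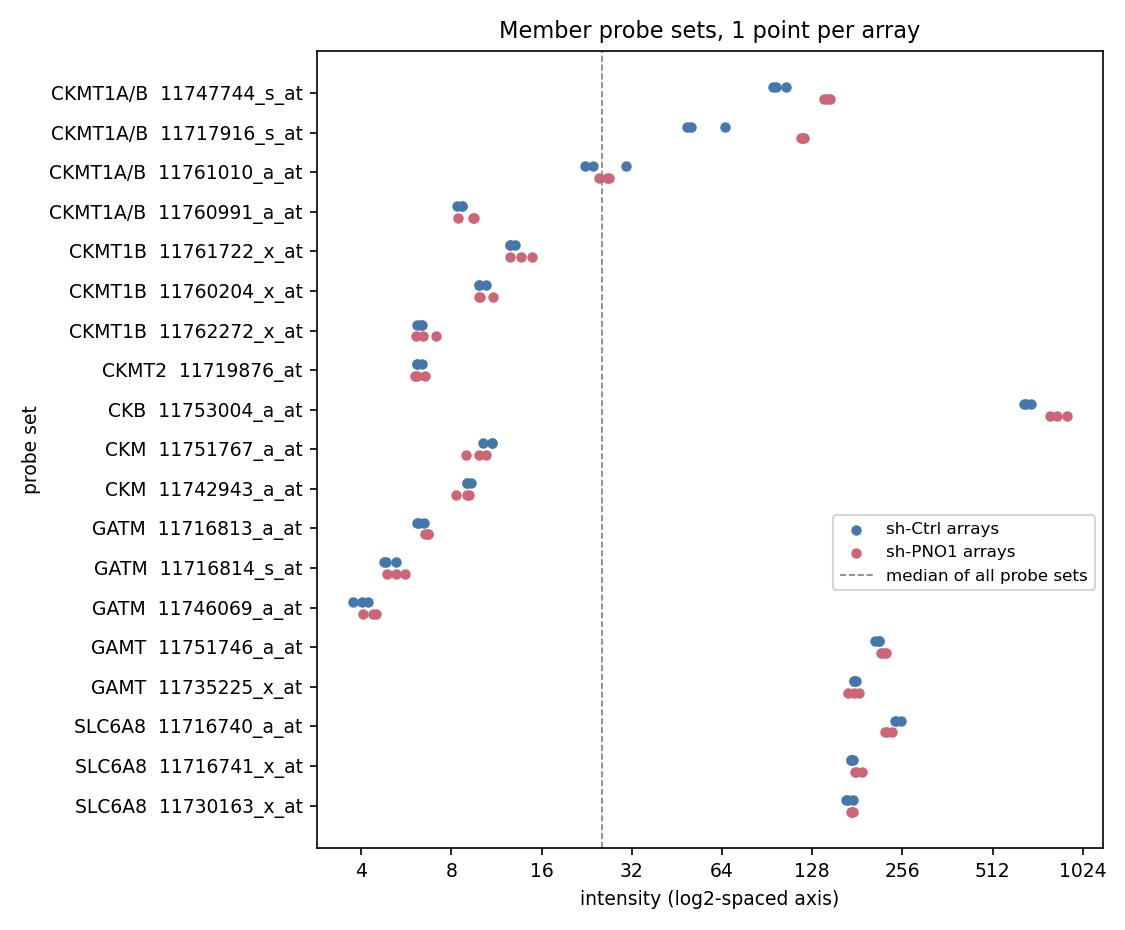
Intensity of the 19 member probe sets (log2-spaced horizontal axis), 1 point per array, with sh-Ctrl in blue and sh-PNO1 in red and the median of all probe sets as a dashed line. The groups stand clearly apart on the first 2 CKMT1A/B probe sets and on CKB, and the probe sets of CKM, CKMT2 and GATM lie left of the dashed line.

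The mitochondrial kinase copies were covered by 7 probe sets, 4 that list both CKMT1A and CKMT1B and 3 that list CKMT1B; CKMT1A had none of its own. On probe set 11717916_s_at, which the gene table pairs with a RefSeq transcript, the sh-Ctrl arrays read 65.4, 49.0 and 50.3 and the sh-PNO1 arrays 120, 118 and 120. The groups lay far apart, with sh-Ctrl replicate 1 the highest of the controls and the sh-PNO1 arrays nearly equal. The means were 54.9 ± 9.12 (SD, n = 3) and 119 ± 1.47 (SD, n = 3), and the log2 fold change was 1.13 ± 0.10 SE, a size that 0.114% of all probe sets reached or exceeded upward.

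On the second shared probe set, 11747744_s_at, the sh-Ctrl arrays read 105, 96.9 and 94.997 and the sh-PNO1 arrays 143, 140 and 147. The groups again did not overlap, and sh-Ctrl replicate 1 was again the highest control. The means of 98.9 ± 5.14 and 143 ± 3.12 (SD, n = 3 each) gave a log2 fold change of 0.54 ± 0.05 SE, or 1.45-fold. The intervals of the pair, 0.89 to 1.37 and 0.42 to 0.66, do not meet, and the difference between them was not tested.

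The other 5 probe sets of these copies lay at or below about the median probe set and did not separate the groups. On 11761010_a_at the sh-Ctrl arrays read 22.3, 23.7 and 30.6 and the sh-PNO1 arrays 24.9, 27.0 and 26.4, a log2 fold change of 0.04 ± 0.11 SE. On 11760991_a_at the means were 8.59 ± 0.22 and 9.12 ± 0.60, a value of 0.09. The 3 probe sets that list CKMT1B alone had sh-Ctrl means of 12.7, 10.1 and 6.29 and log2 fold changes of 0.10, 0.03 and 0.06. With all 7 averaged, the log2 fold change was 0.28 ± 0.03 SE. That SE covers the spread between arrays and not that between the 7 probe sets, which ran from 0.03 to 1.13. The CKMT1B probe sets carry the suffix _x_at and the pair that differed the suffix _s_at, which mark probes that can match several transcripts, so the signal cannot be divided between the copies.

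CKB, the cytosolic brain-type kinase, had 1 probe set. Its sh-Ctrl arrays read 689, 663 and 651 and its sh-PNO1 arrays 909, 793 and 838. Every sh-PNO1 array lay above every control, and sh-PNO1 replicate 1 was the highest. The means of 668 ± 19.2 and 846 ± 58.4 (SD, n = 3 each) gave a log2 fold change of 0.34 ± 0.06 SE, or 1.27-fold, with an interval of 0.20 to 0.48.

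The muscle kinases stayed dim. The 2 probe sets of CKM, the muscle cytosolic type, had means of 10.7 ± 0.44 and 9.14 ± 0.15 in sh-Ctrl and 9.78 ± 0.76 and 8.84 ± 0.45 in sh-PNO1, with log2 fold changes of −0.13 ± 0.07 SE and −0.05 ± 0.05 SE. The 1 probe set of CKMT2, the sarcomeric mitochondrial type, read 6.12, 6.41 and 6.12 in sh-Ctrl and 6.52, 6.06 and 6.12 in sh-PNO1 (0.0035 ± 0.05 SE). In all 3 probe sets the arrays of the groups overlapped.

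**Figure D2:**
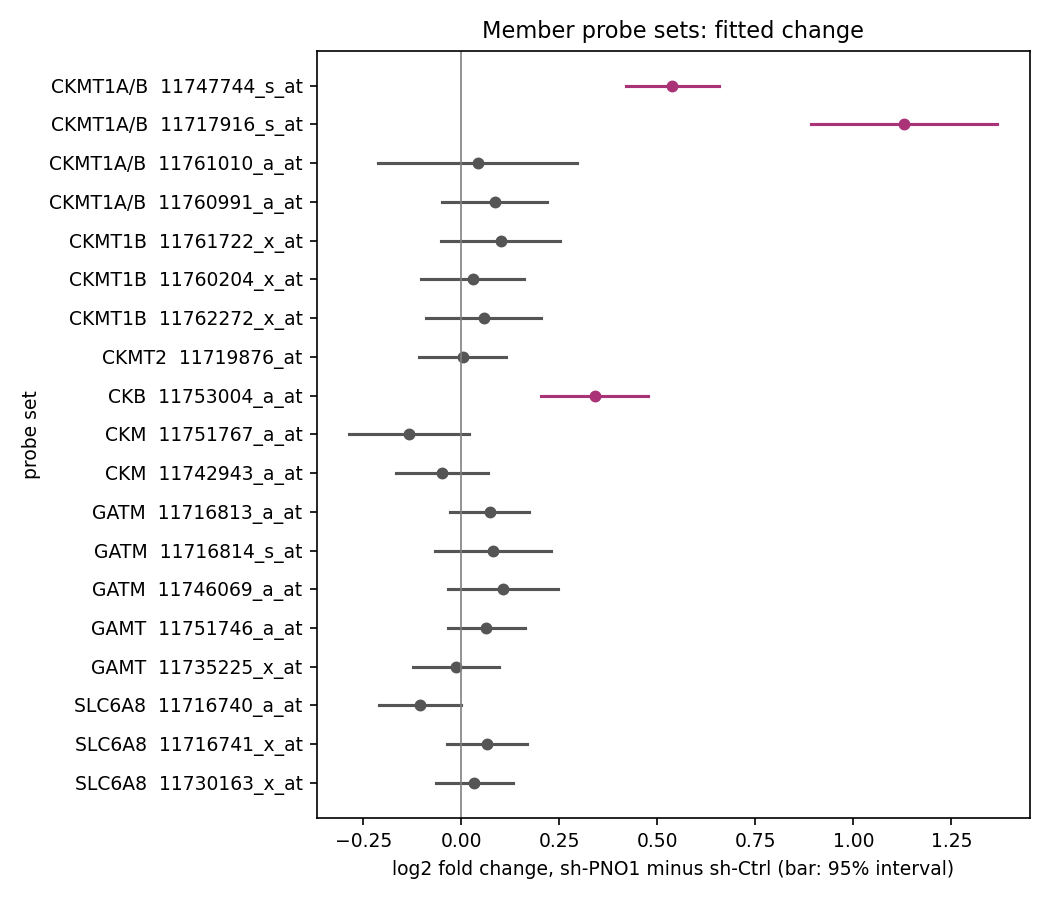
Fitted log2 fold change, sh-PNO1 minus sh-Ctrl, of each member probe set (point) with its 95% interval (bar) from the fit across all probe sets; coloured probe sets are those called. The CKMT1A/B values of 1.13 and 0.54 and the CKB value of 0.34 lie apart from 0, and the other 16 lie between −0.13 and 0.11.

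Of the genes of creatine synthesis, GATM lay far below the median probe set and GAMT above it, and neither was called. GATM, the first enzyme, had 3 probe sets with sh-Ctrl means of 6.30, 4.95 and 3.996 and sh-PNO1 means of 6.62, 5.24 and 4.30. Their log2 fold changes were 0.07, 0.08 and 0.11, and the arrays of the groups stayed apart only on 11716813_a_at (6.16 to 6.50 against 6.53 to 6.67). GAMT, the methyltransferase, read 214, 208 and 215 in sh-Ctrl and 222, 217 and 226 in sh-PNO1 on 11751746_a_at. These arrays did not overlap, yet the difference was small, 0.06 ± 0.04 SE with an interval of −0.03 to 0.16. On 11735225_x_at the GAMT arrays overlapped, with means of 177 ± 1.84 and 176 ± 7.5 (−0.01 ± 0.05 SE).

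SLC6A8, the creatine transporter, did not move one way over its 3 probe sets. On 11716740_a_at the sh-Ctrl arrays read 242, 253 and 244 and the sh-PNO1 arrays 224, 227 and 237. Here all sh-PNO1 arrays lay below all controls, by −0.11 ± 0.05 SE on the log2 scale, which was not called at the threshold but was called when 16 was added to every intensity before log2 (−0.10). On 11716741_x_at the sh-Ctrl arrays read 172, 174 and 172 and the sh-PNO1 arrays 177, 179 and 188, which lay above the controls by 0.07 ± 0.04 SE. On 11730163_x_at the groups overlapped, with means of 170 ± 4.76 and 174 ± 1.21 (0.03 ± 0.04 SE). The mean over the 3 probe sets changed by −0.0016 ± 0.03 SE. A further probe set, 11730162_s_at, is listed for SLC6A8 together with the pseudogenes SLC6A10P and SLC6A10PB and so is not counted among the members. Its means were 169 ± 5.96 and 161 ± 10.2 (−0.07 ± 0.06 SE). Signal from SLC6A8 and from these pseudogenes may share probes.

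Over the 16 member probe sets that were not called, the 95% intervals of the log2 fold change reached from −0.28 to 0.30, that is, from 0.821-fold to 1.23-fold of the control signal. For most of them this bound is on the signal and not on the transcript: only 6 of the 16 lay above the median probe set, and a dim probe set holds a large share of background. The 23 background probe sets of the array had mean intensities of 2.53 at 3 GC bases, 4.24 at 14 and 19.9 at 18. They rose to 207 at 24 GC bases and 773 at 25, and the GC content of the member probes was not used here. So it cannot be judged gene by gene which member was detected. The signals of CKMT1A/B (49.0 to 147 on the called pair), CKB, GAMT and SLC6A8 lay above the background probe sets of up to 20 GC bases. Those reached 34.2 on single arrays. Only background probe sets of more GC bases reached such signals, with up to 894 on single arrays at 25 GC bases, above CKB on all arrays but 1.

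**Figure D3:**
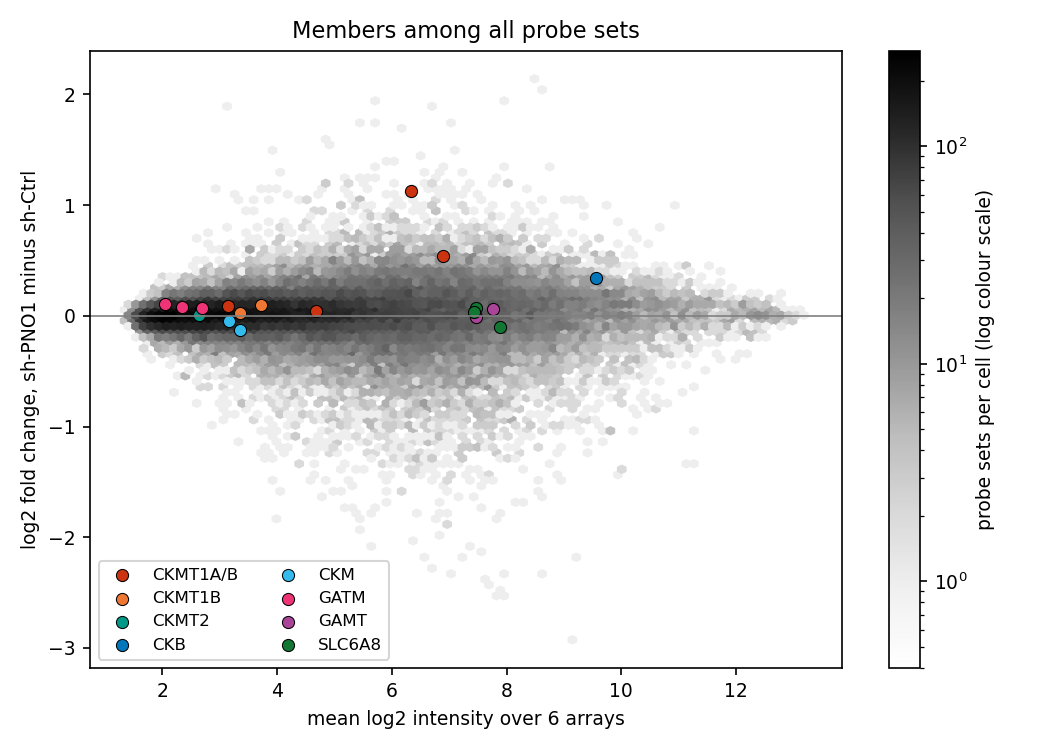
Log2 fold change against the mean log2 intensity over 6 arrays for all 49293 probe sets (grey cells, darker for more probe sets, log colour scale) with the 19 member probe sets as coloured points. CKMT1A/B at 1.13 lies near the upper edge for its intensity, and GAMT and SLC6A8 lie in the middle of the grey cells.

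The genes whose arrays followed probe set 11717916_s_at of CKMT1A/B most closely were PEX16 (Pearson r = 0.9999), ELAC2 (0.9995), RPP14 (0.9994), CXADR (0.9993) and NKD1 (0.9993), each over 6 arrays and among 31686 probe sets above the dimmest 30%. NKD1 read 35.0, 26.9 and 27.2 in sh-Ctrl and 67.5, 68.4 and 69.8 in sh-PNO1, a log2 fold change of 1.22. PEX16, a peroxisome assembly factor, rose by 0.37 on that scale, so that a like order of arrays went with a much smaller difference. All 5 were higher in sh-Ctrl replicate 1 than in the other controls, as the CKMT1A/B probe set was. The points of such a correlation fall into the groups of the design, and 8.16% of the 31686 probe sets had r above 0.95.

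Genes that work beside the creatine system were read from 7 lists taken from textbook knowledge, each gene represented by its brightest probe set of 1 symbol. The lists were written with earlier results of these data known. Of 84 genes measured, 18 were higher and 12 lower in limma at an adjusted p under 0.05 over all probe sets, shares of 21.4% and 14.3%. Over all 18132 genes read the same way the shares were 18.4% and 13.2%. The median log2 fold change was 0.04 over the lists and 0.025 over all genes. At an adjusted p under 0.01 the lists held 11 higher and 7 lower, against 11.7% and 9.26% of all genes. At an unadjusted p under 0.05, used below beside counts of 0, the shares of all genes were 24.7% higher and 16.8% lower.

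Mitochondrial ATP/ADP exchange, the step to which mitochondrial creatine kinase is coupled, held the largest change. Of 6 genes measured 3 were higher and 1 lower, with a median of 0.15. SLC25A5, an ADP/ATP carrier of the inner membrane, fell from 3761 ± 22.5 to 1506 ± 20.4 (log2 fold change −1.32 ± 0.04 SE, limma adjusted p = 1.35e-06, 2 of 2 probe sets lower). SLC25A4, the related carrier of heart and muscle, rose from 198 ± 4.23 to 273 ± 3.60 (0.47 ± 0.04 SE, adjusted p = 0.000129, 2 of 2 higher). The outer membrane channels VDAC3 (0.29, adjusted p = 0.00133, 3 of 3 higher) and VDAC1 (0.21, adjusted p = 0.0273) also rose. VDAC1 did not pass without sh-Ctrl replicate 1, sh-Ctrl replicate 3, sh-PNO1 replicate 2 or sh-PNO1 replicate 3 (adjusted p = 0.091, 0.0798, 0.0874 and 0.0686). No 1-symbol probe set was found for SLC25A6.

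Adenylate kinases, which pass phosphate between ATP, ADP and AMP, went both ways. Of 5 measured 2 were higher and 1 lower, with a median of 0.15. AK4, a kinase of the mitochondrial matrix, fell (−0.29 ± 0.04 SE, adjusted p = 0.00162, 2 of 2 probe sets lower), while AK3, also of the matrix, rose (0.28 ± 0.04 SE, adjusted p = 0.00214), on 1 of its 4 probe sets, the lowest standing at −0.06. AK3 did not pass without the _x_at and _s_at probe sets (0.21, adjusted p = 0.098). The cytosolic AK1 rose (0.26 ± 0.05 SE, adjusted p = 0.00478, 2 of 2 higher), and AK5 stood at 0.15 (adjusted p = 0.212).

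Genes that make, move or use arginine, ornithine and glycine, the substrates and by-product of GATM, also went both ways, 4 higher and 4 lower of 19 measured, with a median of −0.06. ARG2, the mitochondrial arginase, rose from 35.4 ± 1.16 to 67.0 ± 4.20 (0.92 ± 0.06 SE, adjusted p = 2.26e-05, 2 of 2 probe sets higher). SLC25A15, the mitochondrial ornithine carrier, fell from 216 ± 5.57 to 114 ± 6.96 (−0.92 ± 0.06 SE, adjusted p = 1.84e-05, 3 of 3 lower). SLC25A38, a mitochondrial glycine carrier, rose by 0.23 (adjusted p = 0.00571). DLD, a subunit of the glycine cleavage system and of other dehydrogenases, fell (−0.25, adjusted p = 0.0122, 6 of 7 probe sets lower) but did not pass without sh-Ctrl replicate 2 (adjusted p = 0.0509).

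In the S-adenosylmethionine cycle, which feeds the methyl group to GAMT, 5 of 15 measured genes were higher and 2 lower, with a median of 0.04. MAT2A, the catalytic subunit that makes S-adenosylmethionine, fell from 1981 ± 39.2 to 1620 ± 48.1 (−0.29 ± 0.04 SE, adjusted p = 0.00185, 6 of 6 probe sets lower), while its regulatory subunit MAT2B rose (0.19 ± 0.05 SE, adjusted p = 0.0149; 0.0521 without sh-Ctrl replicate 3). PEMT, a methyltransferase of phosphatidylcholine synthesis, rose (0.39 ± 0.04 SE, adjusted p = 0.000311), as did AHCYL2, a relative of adenosylhomocysteinase (0.31 ± 0.04 SE, adjusted p = 0.000748, 2 of 2 higher).

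Among the SLC6 transporters other than SLC6A8, with the creatine carrier SLC16A12, 1 of 17 measured was lower and 0 higher in limma, with a median of 0.06. At an unadjusted p under 0.05 there were 1 lower and 1 higher. SLC6A6, the taurine transporter and a close relative of SLC6A8, fell from 232 ± 9.37 to 132 ± 4.60 (−0.81 ± 0.05 SE, adjusted p = 2.21e-05), on 1 of its 5 probe sets, the highest standing at 0.13. SLC6A2 (0.15, adjusted p = 0.0908), SLC6A19 (0.14, adjusted p = 0.159) and SLC6A17 (−0.12, adjusted p = 0.178) did not pass. SLC6A2 (0.21, adjusted p = 0.0394) and SLC6A17 (−0.19, adjusted p = 0.0278) passed without sh-Ctrl replicate 1.

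Subunits of AMP-activated protein kinase, the sensor of AMP, and of its upstream kinase changed in 6 of 11 cases, 4 higher and 2 lower, with a median of 0.18. The regulatory subunit PRKAB2 rose from 99.8 ± 5.79 to 186 ± 11.3 (0.89 ± 0.06 SE, adjusted p = 4.12e-05, 3 of 3 probe sets higher) and PRKAG2, which binds AMP, by 0.44 ± 0.05 SE (adjusted p = 0.000238, 4 of 4). The catalytic subunit PRKAA1 rose on its brightest probe set (0.45 ± 0.06 SE, adjusted p = 0.00118), 1 of 4, the lowest standing at −0.08. CAB39, a partner of the upstream kinase STK11, fell (−0.43 ± 0.05 SE, adjusted p = 0.000616, 3 of 3 lower).

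Of 11 regulators of mitochondrial energy genes, namely nuclear receptors, their coactivators and the factors NRF1, TFAM and GABPA, 1 was lower and 0 were higher in limma, with a median of −0.08. At an unadjusted p under 0.05 there were 1 lower and 2 higher. The gene that passed was neither a receptor nor a coactivator. GABPA, a transcription factor of nuclear genes for mitochondria, fell from 151 ± 21.2 to 93.8 ± 4.0 (−0.68 ± 0.09 SE, adjusted p = 0.00101, 2 of 2 probe sets lower). ESRRA (0.10, adjusted p = 0.123; 0.0176 when 16 was added before log2), PPARD (0.12, adjusted p = 0.129) and PPARGC1B (−0.15, adjusted p = 0.196) did not pass.

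**Figure D4:**
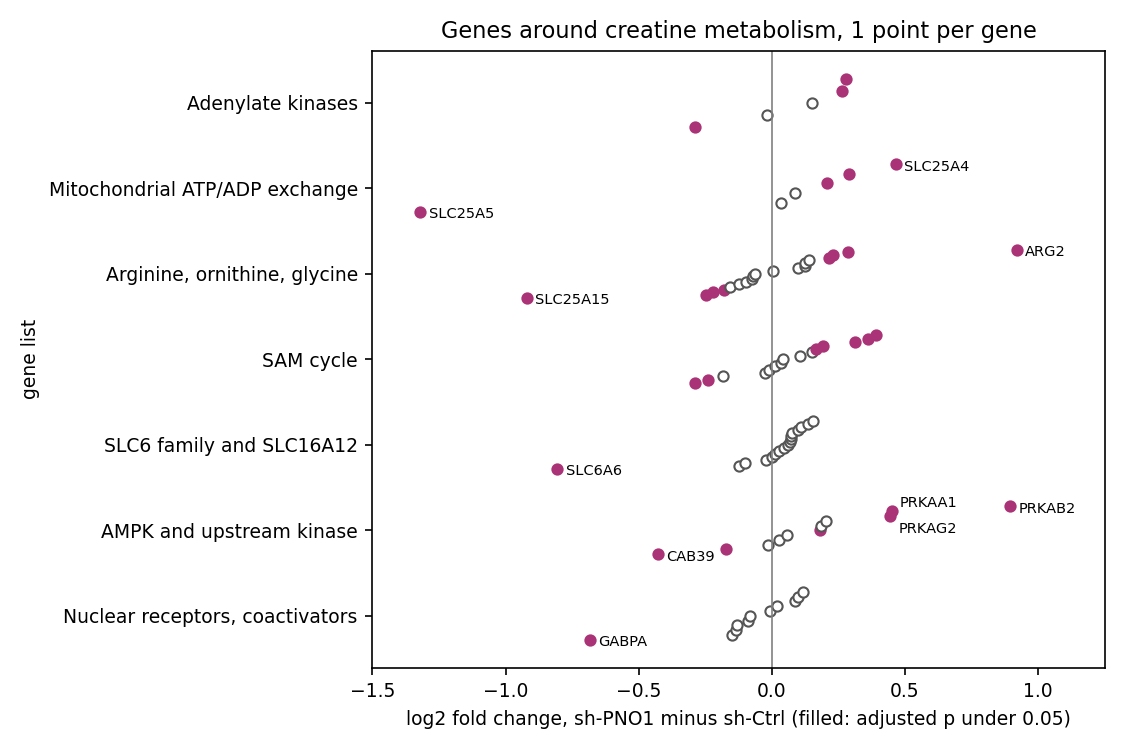
Log2 fold change, sh-PNO1 minus sh-Ctrl, of each measured gene of the 7 lists, 1 point per gene, filled where the adjusted p is under 0.05; genes that passed with a size over 0.42 are named. SLC25A5 at −1.32 lies farthest to the left, and ARG2 at 0.92 and PRKAB2 at 0.89 lie farthest to the right.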

How the data were processed

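The authors deposited 1 intensity for each of 49395 probe sets and 6 arrays, made with RMA per the submitters' processing notes (no version given); the values lie on a linear scale, with nearly equal array medians, so changes are relative to the other transcripts of an array. The background correction and build are not given here by any source. Values were turned into log2 with no offset, and 49293 probe sets (102 controls left out) were fitted in limma 3.58.1 (R 4.3.3; lmFit, eBayes, no covariate), with Benjamini and Hochberg adjustment over all of them and a threshold of 0.05, two-sided. Intervals are 95% intervals of that fit. The gene table gave 44988 probe sets 1 symbol, 1832 several and 2473 none. A gene of a list was represented by its brightest 1-symbol probe set.

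The members and the lists were chosen with earlier results of these data known. Named were all member probe sets, PNO1, in each list up to 4 genes with the smallest adjusted p, and the 5 genes whose log2 values correlated best with the member probe set of the largest difference.

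On simulated data with the same 49293 probe sets, 200 of them changed, the sh-PNO1 against sh-Ctrl step found 77% of the changes of 0.5 on the log2 scale (3.14% of its calls were false). At a size of 1 it found 97.5%, and 3.47% of calls were false. In the data themselves 13791 probe sets were called, far more than 200, so these shares need not hold there. Alternatives were an offset of 16, repeated quantile normalisation, equal array medians, the dimmest 30% of probe sets left out, the replicate number as a block, a variance trend with robust prior, array weights, each array left out, no _x_at or _s_at probe sets, averaged probe sets and a threshold of 0.01.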

Additional observations from a re-analysis of the deposited data

How the results depend on the processing

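The 3 member probe sets called higher, 2 of CKMT1A/B and 1 of CKB, were called under every alternative that kept them (averaged probe sets gave values only). Each alternative used arrays of the comparison in which the genes were chosen, so these repeats describe the processing alone. Leaving out the _x_at and _s_at probe sets removes both of CKMT1A/B by construction, so that 1 was called, and lowered the count of all calls from 13791 to 8711. Single arrays left out gave 1.05 to 1.26 and 0.51 to 0.58 for the CKMT1A/B pair and 0.29 to 0.39 for CKB; an offset of 16 gave 0.94, 0.47 and 0.33. A threshold of 0.01 left 8666 calls overall and 18 of 30 in the gene lists. With the replicate block 12964 probe sets were called and 26 list genes. Same-numbered arrays deviated from their group means with r of −0.04, 0.10 and −0.03, and differently numbered arrays with r of −0.05 to 0.09. With 3 arrays per group, whether the numbers pair the samples is not settled by these values. Of the named list genes, VDAC1, DLD, MAT2B and AK3 lost their call under at least 1 alternative with the threshold of 0.05, and no called value changed sign. Signs of uncalled members did change: CKMT2 in 5 of 14 alternatives, CKMT1A/B 11761010_a_at in 2 of 15, and 2 CKMT1B probe sets and GAMT 11735225_x_at in 1 each. The number of arrays and, for dim members, signal close to background limit the precision.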

Other observations

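The genes next to the members in RefSeq order were read after the member values had been seen, taking the nearest protein-coding gene with a 1-symbol probe set on each side. PDIA3, an oxidoreductase of the endoplasmic reticulum that follows CKMT1A, fell from 1663 to 1193 (log2 fold change −0.48 ± 0.04 SE, limma adjusted p = 0.000149). PPIP5K1, an inositol phosphate kinase that precedes CKMT1B, was also lower (−0.19 ± 0.05 SE, adjusted p = 0.0247). CATSPER2, a sperm ion channel gene between the copies, stood at 0.07 (adjusted p = 0.385). Next to CKB, the kinase MARK3 rose by 0.33 ± 0.05 SE (adjusted p = 0.00164) and TRMT61A stood at −0.01 (adjusted p = 0.887). Beside CKM, the kinesin light chain KLC3 rose by 0.50 ± 0.07 SE (adjusted p = 0.00159), the largest change among these neighbours, and MARK4 stood at 0.0013 (adjusted p = 0.990). Beside GATM, AFG2B was lower (−0.15, adjusted p = 0.0487) and SLC28A2 stood at −0.06 (adjusted p = 0.546). The neighbours of CKMT2 (RASGRF2 at 0.02 and ZCCHC9 at 0.14) and of SLC6A8 (PNCK at −0.17 and BCAP31 at 0.10) did not pass. Beside GAMT, the complex I subunit NDUFS7 (0.27, adjusted p = 0.00255) and DAZAP1 (0.18, adjusted p = 0.0139) rose.

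The 6 probe sets of SLC6A13, a transporter of the SLC6 family, ranged from −0.06 to 1.14 in log2 fold change, while the brightest, which represented the gene, stood at 0.07; this gene was singled out after its values were seen.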
